A study of Mus musculus with 15 samples.

Results

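The response of skeletal muscle to calorie restriction (CR) was measured in wildtype mice, as the difference between 4 CR-fed and 3 control-fed animals, which are 7 of the 15 arrays of a design that also holds Sirt3 knockout mice. All 7 were male wildtype C57BL/6 mice aged 12 months, and total RNA of the gastrocnemius, the large superficial muscle of the calf, was hybridised to 1 Affymetrix mouse array per mouse. In the fit, the other 8 arrays, 4 knockout control and 4 knockout CR, served the shared estimate of the spread and the comparison of the response between genotypes. They also entered the means over all 15 arrays by which each gene's probe set was chosen and low values were filtered. Arrays were chosen by the genotype and diet in their titles. The labels do not say how strong the restriction was or how long it lasted. Of 19938 genes with 1 symbol in the platform annotation, 12056 lay above the filter on low values and were tested. Values are log2 RMA intensities as deposited, so a difference of 1 is a doubling of signal, and levels are compared only within a gene. The number of arrays limits the precision: the median SD between arrays was 0.14 in the control and 0.10 in the CR group, and the median standard error of a diet difference was 0.10.

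Calorie restriction lowers the supply of nutrients without malnutrition, and fasting hormones, among them glucocorticoids, then drive a muscle towards saving and releasing fuel. Adult gastrocnemius contracts mainly with fast isoforms of myosin, troponin and their light chains and feeds on glycolysis, while slow fibres hold other isoforms and burn fat. Around the fibres lie collagen-rich connective tissue, tendon, fat cells, vessels and immune cells, all of which contribute RNA. In RNA from whole tissue, fewer cells of a type and less RNA per cell cannot be told apart.

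The arrays carried the transcripts of this muscle. All 12 muscle identity genes lay at high signal on every array, with a mean over the list between 12.61 and 12.80. Sirt3, the mitochondrial deacetylase deleted in the other groups, measured 6.38 to 6.68 in the wildtype mice and 4.94 to 6.19 in the knockout mice. Within the wildtype it was 6.61 ± 0.11 (SD, n = 3) on control diet and 6.46 ± 0.07 (SD, n = 4) on CR, a difference of -0.14 with an exact two-sided permutation p of 0.143 over 35 splits.

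Single arrays carried transcripts typical of other tissues, and this touches the comparison before any gene is read. A gene was counted as standing out on an array when its value exceeded the next highest of the 7 wildtype arrays by at least 2 log2 units. On control 2 there were 36 such genes, and they held all 23 pancreatic acinar markers on the array, the digestive enzymes of the exocrine pancreas. Cpa1, a carboxypeptidase, read 13.27 on control 2 and between 5.32 and 7.04 on the other 6 arrays. On control 3 there were 432, with 25 of 32 male germ cell markers among them. The sperm protein gene Smcp read 11.69 there, next to 7.70 on CR 3 and 7.48 on control 2, and between 4.92 and 5.89 elsewhere. The germ cell list as a whole averaged 8.87 on control 3 and 4.85 to 5.63 on the other arrays, with CR 3 the next highest.

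Liver transcripts were spread over a control and a CR array. Saa2, Cyp2c39, Cyp3a11 and Cyp2b9, which encode an acute phase protein and drug-metabolising enzymes of the liver, were the only 4 genes to stand out on CR 4. The mean of the 21 liver markers on the array was 8.55 on CR 4, 7.51 on control 1 and 5.83 to 6.29 on the other 5 arrays. Alb, serum albumin, read 11.11, 8.39 and 9.78 on the control arrays and 8.16, 8.53, 8.99 and 11.95 on the CR arrays, so both diets held a high array. Elovl6 was the only gene to stand out on CR 1, and no gene did so on control 1, CR 2 or CR 3.

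**Figure D1:**
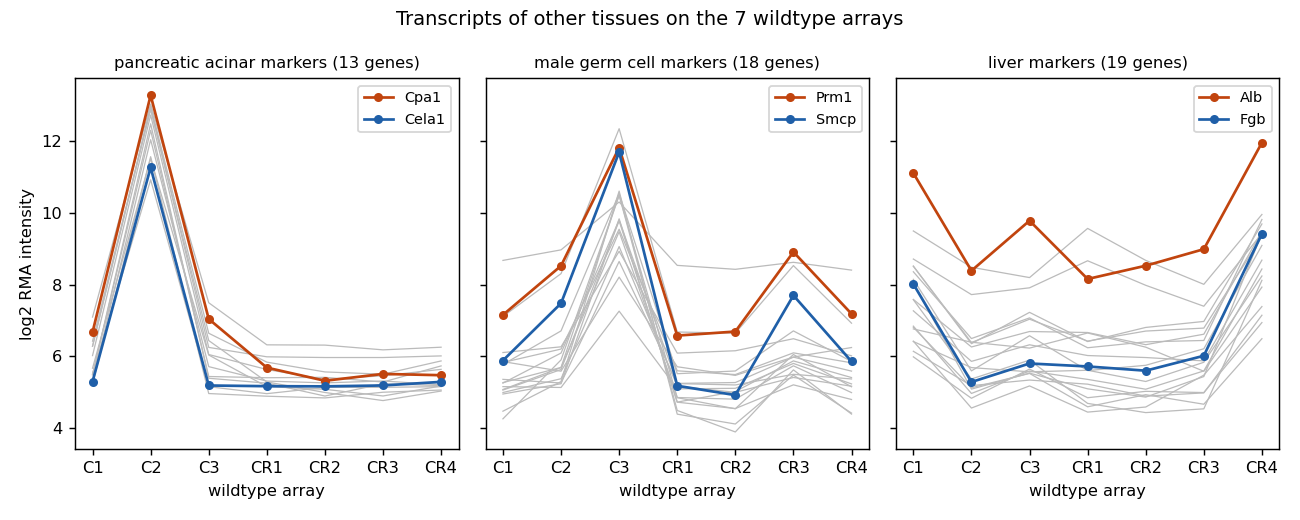
Log2 RMA intensity of every tested pancreatic acinar, male germ cell and liver marker (lines) on the 3 wildtype control arrays (C1 to C3) and the 4 wildtype CR arrays (CR1 to CR4). Acinar markers peak on control 2 (Cpa1 at 13.27), germ cell markers on control 3 (Smcp at 11.69), and liver markers on CR 4 and control 1 (Alb at 11.95 and 11.11).

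These arrays filled the list of largest decreases. The 10 genes with the most negative differences were 2210010C04Rik, Cpa1, Rnase1, Clps, Ctrb1, Sycn, Ctrl, Prss2, Cela3b and Cela2a, with log2 differences from -3.56 to -2.50, and each of the 10 stood out on control 2. Among the 50 largest decreases 47 stood out on 1 array, and among the 100 largest 88 did. Among the 50 largest increases this held for 1 gene, Elovl6. Their errors were large, with a median standard error of 1.09 over the 10 genes, and none of the 10 passed the test. Of 111 genes lower by 1 log2 unit or more (0.921% of those tested) 1 passed, Odc1. Of the 12 genes higher by that much (0.0995%) 2 passed, Mybph and Actc1.

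**Figure D2:**
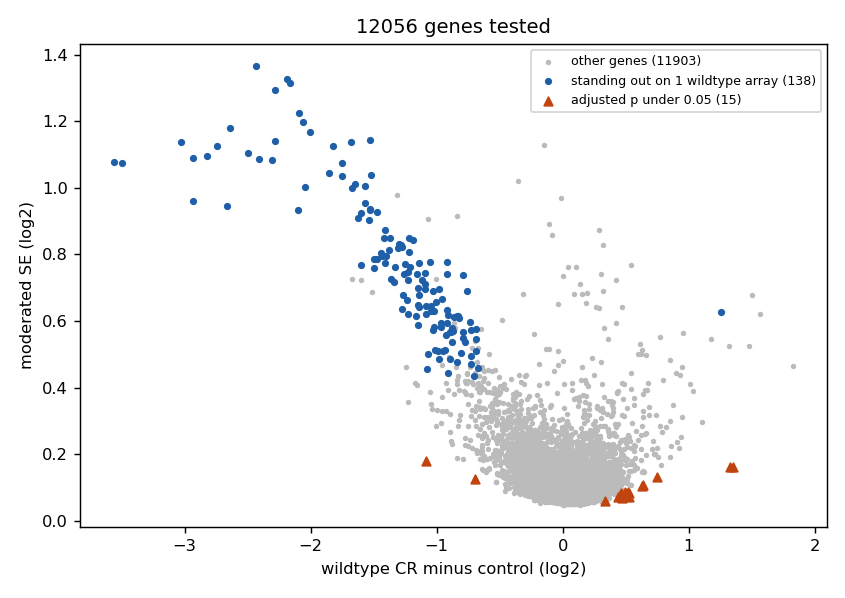
Difference between wildtype CR and control (log2, x axis) against its moderated standard error (log2, y axis) for the 12056 genes tested. Blue points, genes that stood out on 1 wildtype array, make up the far left at large errors, and the 15 genes past the threshold (triangles) lie at small errors.

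Control 3 also differed from the other arrays outside the germ cell genes. It was the lowest of the 7 arrays for 5097 of the 12056 genes, 42.3%, while each of the other arrays was the lowest for 755 to 1769. At an unadjusted p under 0.05, 1172 genes were higher on CR (9.72%) and 410 lower (3.4%). Of the 1172 higher genes, control 3 was the lowest array for 843, or 71.9%. Genes chosen as higher on CR nearly always have a control as their lowest array, so this share cannot be set against the 42.3%. Controls 1 and 2 were the lowest for 169 and 159 of the 1172, and for 1345 and 1255 of all genes tested. Without control 3, 583 genes were higher and 440 lower at that p. What lowered the values of control 3 was not tested.

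With the whole table fitted by limma and adjusted by Benjamini-Hochberg, 15 genes passed an adjusted p of 0.05, which is 0.124% of those tested. CR raised 13 (0.108%) and lowered 2 (0.0166%). Mybph and Actc1, which encode proteins of the thick and the thin filament, rose by more than 1 log2 unit, and the other 11 by 0.33 to 0.75. Odc1, which opens polyamine synthesis, and the zinc importer Slc39a10 fell. In all 15 genes the 3 control and the 4 CR arrays did not overlap, as they did not in 1507 of all genes (12.5%). Over all genes tested the median difference was 0.04, 62.3% of genes were higher on CR, and the 5th and 95th percentiles of the difference were -0.33 and 0.28.

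Mybph encodes myosin binding protein H, a component of the thick filament. It read 8.74, 9.22 and 8.73 on the control arrays and 10.31, 10.33, 9.96 and 10.39 on the CR arrays. Every CR array lay above every control array, with CR 3 the lowest of its group. The means were 8.90 ± 0.28 (SD, n = 3) and 10.25 ± 0.19 (SD, n = 4), a log2 difference of 1.35 (SE 0.16, limma adjusted p = 0.00546) or 2.55 times the control signal. Actc1, the cardiac alpha-actin that skeletal muscle expresses strongly before birth, read 11.18, 11.72 and 11.38 on control diet and 12.81, 12.91, 12.30 and 13.00 on CR. Here too CR 3 was the lowest CR array and stayed above all controls. The log2 difference was 1.33 (SE 0.16, limma adjusted p = 0.00546), or 2.51 times the control signal. Acta1, the actin of adult skeletal muscle, differed by 0.10 without passing. Actins are close in sequence, and whether the Actc1 probes also bind Acta1 RNA was not tested.

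The promoters of Mybph, Actc1 and Odc1 are shown because these genes had the largest increases and the largest decrease among the 15, as the 250 bases before the gene start in RefSeq on GRCm38.p6. On either strand, capitals mark TATAAA, the GC box core GGGCGG and the CArG box. The CArG box, the binding sequence of serum response factor, was searched as CC, 6 bases of A or T, then GG. The lines are Mybph on chr1:134193198-134193447 (plus strand), Actc1 on chr2:114052876-114053125 (minus strand) and Odc1 on chr12:17544623-17544872 (plus strand).
Mybph: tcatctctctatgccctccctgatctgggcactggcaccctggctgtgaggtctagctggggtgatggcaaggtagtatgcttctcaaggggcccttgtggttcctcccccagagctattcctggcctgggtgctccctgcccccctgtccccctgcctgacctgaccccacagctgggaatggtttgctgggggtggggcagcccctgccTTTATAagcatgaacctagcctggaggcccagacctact
Actc1: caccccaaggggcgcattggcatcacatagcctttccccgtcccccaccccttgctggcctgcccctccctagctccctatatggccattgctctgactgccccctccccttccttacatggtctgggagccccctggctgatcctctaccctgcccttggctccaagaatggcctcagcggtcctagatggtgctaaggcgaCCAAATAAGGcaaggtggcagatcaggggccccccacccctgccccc
Odc1: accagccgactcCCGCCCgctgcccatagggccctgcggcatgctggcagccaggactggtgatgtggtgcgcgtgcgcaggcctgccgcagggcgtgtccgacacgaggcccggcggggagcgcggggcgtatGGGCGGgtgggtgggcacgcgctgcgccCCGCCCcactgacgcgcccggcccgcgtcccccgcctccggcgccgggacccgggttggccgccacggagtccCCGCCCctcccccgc
The Actc1 promoter held a CArG box at position -47, counted back from the gene start, which 1.47% of 32851 promoters of this length held anywhere. The Mybph promoter held TATAAA on the reverse strand at -39 (12.4% of all promoters) and the E-box pattern CANNTG, bound by myogenic factors, at -79 (66.2%). The Odc1 promoter held GGGCGG 4 times (32.7% of promoters held at least 1). Promoters of 11 called genes were used, and the other called genes are not in these counts. Of the 11, 2 held a CArG box (Actc1 and Rpl10a), 1 the TATAAA sequence, 6 the GC box core and 7 the E-box pattern. None of the 11 held the E-box form CACGTG (6.02% of all promoters) or a MEF2 site (2.92%). These are counts of genes over 15 promoters, some genes having 2, while the shares are per promoter, so the counts and shares are not on the same footing. A match is a description of the letters only.

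Of the other genes that rose, several act at the membranes and sarcomere of the fibre. Mylpf, the regulatory light chain of fast myosin, read 11.18, 11.38 and 11.29 on control diet and 11.76, 11.85, 11.61 and 11.91 on CR (0.50, SE 0.09, limma adjusted p = 0.0489). Dhrs7c, a short-chain dehydrogenase of the sarcoplasmic reticulum, read 9.11, 9.21 and 9.12 against 9.91, 9.94, 9.73 and 9.996, a difference of 0.75 (SE 0.13, limma adjusted p = 0.0489). In both genes CR 3 was again the lowest CR array and no CR array reached down to the controls. Stxbp4, a binding partner of syntaxin 4 in the insulin-regulated docking of glucose transporter vesicles, read 7.87, 7.91 and 7.74 against 8.65, 8.48, 8.40 and 8.38 (0.64, SE 0.11, limma adjusted p = 0.0419). Its second probe set gave 0.57.

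Ctnnbip1, which blocks beta-catenin from its transcription partners, read 6.53, 6.88 and 6.66 on control diet and 7.29, 7.29, 7.17 and 7.53 on CR (0.63, SE 0.10, limma adjusted p = 0.0419). Mafa, a transcription factor best known from pancreatic beta cells, read 7.26, 7.19 and 7.12 against 7.74, 7.90, 7.65 and 7.57 (0.53, SE 0.08, limma adjusted p = 0.0377). Control 2, the array with the acinar transcripts, read 7.19 for Mafa. Its mean over the islet markers was 5.30, against 5.18 to 5.45 on the other arrays. The part of transcripts of other tissues in the Mafa difference was not tested. Ppp1ca, a catalytic subunit of protein phosphatase 1, read 9.27, 9.22 and 8.92 against 9.67, 9.60, 9.50 and 9.63 (0.46, SE 0.08, limma adjusted p = 0.0499), with control 3 the lowest array.

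The remaining 5 genes that rose differed by 0.33 to 0.52. Gstm2, a glutathione transferase, differed by 0.52 (limma adjusted p = 0.0419) and 2310022A10Rik by 0.44 (the same adjusted p). Misp3 differed by 0.52 (limma adjusted p = 0.0124) and Afap1l1, an actin-associated protein, by 0.47 (limma adjusted p = 0.0198). Rpl10a, a protein of the large ribosomal subunit, differed by 0.33 (limma adjusted p = 0.0499). Its 4 probe sets gave 0.32 to 0.33. Ribosomal protein genes have many near-identical copies in the genome, so which copy those probes read is uncertain.

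Both genes that fell varied more among the controls than on CR. Odc1, ornithine decarboxylase, read 7.80, 8.25 and 8.61 on control diet and 7.32, 6.96, 7.30 and 6.97 on CR. In this probe set the groups did not overlap, and controls 2 and 3, the arrays with pancreatic and germ cell transcripts, were the highest. The log2 difference was -1.08 (SE 0.18, limma adjusted p = 0.0419), or 0.472 of the control signal, and a second probe set gave -0.69. In that probe set the groups overlapped, with CR 1 at 7.49 and control 1 at 7.41, and with the mean of both probe sets Odc1 did not pass (-0.88, limma adjusted p = 0.0662). Slc39a10 read 6.34, 6.88 and 6.89 against 5.90, 5.97, 6.03 and 6.11, a difference of -0.69 (SE 0.12, limma adjusted p = 0.0499), with the same control arrays highest. Without controls 2 and 3, CR 4 and knockout control 1, the difference was -0.60 for Odc1 and -0.37 for Slc39a10, and neither passed (limma adjusted p = 0.472 and 0.552). That fit leaves 1 wildtype control array, which is assumed to vary like the other groups. Knockout control 1 deviated from its group mean together with control 3, the array with germ cell transcripts (correlation 0.76 over the genes tested).

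**Figure D3:**
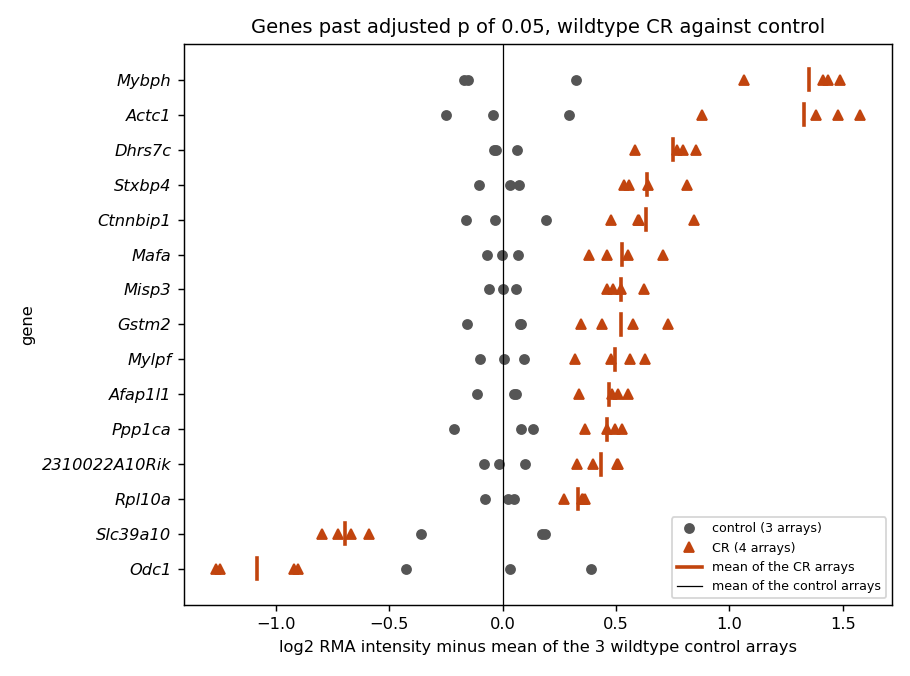
Log2 RMA intensity of the 15 genes past the threshold on each wildtype array, relative to the mean of the 3 control arrays (circles, control; triangles, CR; short bars, mean of the CR arrays). No triangle overlaps the circles of its gene, and the lowest CR point of Mybph and of Actc1 is CR 3.

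The set of 15 depended on single arrays although the direction of each gene did not. Mybph, Actc1 and Misp3 passed in all 15 fits that left out 1 array, Afap1l1 in 12 and Mafa in 9, and the other 10 genes in at most 4. The number called ran from 4 to 41 over those fits. It was 5 without control 3, of which 3 were among the 15, and 41 without control 2, of which 11 were. It was 24 without control 1, 4 without each of CR 1, CR 2 and CR 4, and 9 without CR 3. Leaving out a knockout array gave 4 to 19. Re-centring each array on its median, or quantile normalization, left 4 and 8 genes, all higher. Without both control 3 and knockout control 1, 2 of the 15 passed, Mybph and Actc1 (limma adjusted p = 0.0199 and 0.0343). Misp3 did not pass in that fit (limma adjusted p = 0.0633). With the 7 wildtype arrays fitted alone, none of the 15 passed.

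The next genes by p did not pass. The 10 next higher ones had adjusted p from 0.0637 to 0.0781 and differences of 0.31 to 0.47, all without overlap of the arrays. They include Apobec2, a muscle member of the deaminase family (0.35), Cacnb1, the beta subunit of the calcium channel that couples excitation to contraction (0.46), Tsc1, which with Tsc2 restrains mTORC1 (0.37), and Palld, an actin-binding protein (0.47). The others were Taldo1, Engase, Lingo3, Ap2m1, Sel1l3 and Snrnp48. The 10 next lower ones began with the RNA-binding protein Khdrbs3 (-0.45, limma adjusted p = 0.0747), and the rest lay between adjusted p of 0.114 and 0.133. Among them were Mcpt4, a mast cell protease (-0.53), the endocytic adaptor Dab2 (-0.53), the matrix protein Sparc (-0.43) and Tnmd, a tendon protein (-0.79). Dnajb4, 1810013L24Rik, Zfand3, Clcn4 and Anxa7 completed them.

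The largest increases by size were mostly variable genes. Slc15a2, a transporter of small peptides, read 4.24, 4.18 and 3.95 on control diet and 6.03, 6.41, 6.12 and 5.26 on CR. All 3 control values and that of CR 4 lay under the filter on low values, 5.32, which the gene passed through its mean over all 15 arrays, so its size against such low signal is uncertain. The difference was 1.83 (SE 0.47), with no overlap of the wildtype arrays, and it did not pass (limma adjusted p = 0.163). In the fit the knockout arrays share the estimate of its spread, and over the 7 wildtype arrays alone its SE was 0.25 (limma adjusted p = 0.152). Fibin was the 1 gene to pass in that smaller fit (1.03, limma adjusted p = 0.00733), with 6.33, 6.19 and 6.28 against 7.24, 7.39, 7.25 and 7.32. In the fit with all 15 arrays its SE was 0.39 and its adjusted p 0.279. The others of the 10 largest increases, apart from Mybph and Actc1, were Fasn (1.57), Ddit4 (1.50), Depp1 (1.48), Arrdc2 (1.32), Elovl6 (1.26), the liver acute phase protein gene Orm1 (1.18) and the GABA receptor subunit Gabrr2 (1.11), none of which passed (limma adjusted p from 0.17 to 0.403). Orm1 was highest on CR 4, at 8.38, and next highest on CR 1, at 7.50.

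Genes were also read by function in lists, described by how many members did not overlap between diets. Among all genes tested 9.55% were higher and 2.95% lower on CR without overlap, and no list is tested here. Fast fibre genes lay just above the controls: 12 of 16 were higher without overlap and 1 lower, and the median difference was 0.14, against 0.04 for all genes. Apart from Mylpf the differences were small. Tnni2, fast troponin I, read 12.31, 12.27 and 12.30 on control diet and 12.52, 12.50, 12.43 and 12.51 on CR (0.20, SE 0.06, limma adjusted p = 0.186). Actn3, the alpha-actinin of fast fibres, differed by 0.18 and the Z-disc protein Myoz1 by 0.18. Mylk4, a kinase of the myosin light chain kinase family, was the 1 lower member (-0.27). The median of the list lay between 0.11 and 0.16 when arrays were left out or values were quantile normalized. The muscle identity genes, a list that shares members with this one, had 10 of 12 higher and 1 lower without overlap, with a median of 0.12. Control 2, the array with pancreatic transcripts, was the lowest for 9 of the 16 fast fibre and 9 of the 12 identity genes, and its part in these differences was not tested beyond the medians without it, 0.12 and 0.11.

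Slow fibre genes varied more within each diet than between them. None of 14 was higher without overlap and 1, Mb (myoglobin), was lower at -0.45 (limma adjusted p = 0.29). Myh7, the slow myosin heavy chain, read 10.72, 10.23 and 9.62 on control diet and 9.73, 9.78, 11.06 and 8.85 on CR. The highest and the lowest of the 7 values were both on CR arrays, CR 3 and CR 4. Of the 14 genes 9 were highest on CR 3 and 12 lowest on CR 4. The list's median of -0.32 went to -0.71 without CR 3 and to -0.05 without CR 4.

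Other proteins of contraction and its control varied in both directions. Of 23 other sarcomere genes 9 were higher and 2 lower without overlap (median 0.08), among them Myom2, an M-band protein (0.34). Of 19 calcium handling genes 6 were higher, with Dhrs7c and Cacnb1 at the top, and 1 lower, Mrln, the peptide inhibitor of the calcium pump (-0.64, limma adjusted p = 0.139). Mstn, myostatin, which limits muscle growth, read 9.14, 9.11 and 9.04 on control diet and 8.58, 8.41, 8.65 and 8.42 on CR. The groups did not overlap, and the difference of -0.58 (SE 0.16) did not pass (limma adjusted p = 0.17). Among 20 genes of insulin-like growth factor and mTOR signalling 5 were higher and 2 lower, with a median of 0.08. Control 3 was the lowest array for 14 of the 20, and without it the median was 0.03. Igfbp3, a carrier of those factors, differed by 0.78 (limma adjusted p = 0.114), Igf2 by 0.73 (0.171) and Igf1 by -0.62 (0.201).

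Glycolytic genes were among the higher lists. Of 24 genes 9 were higher without overlap and none lower, with a median of 0.13. Control 3 was the lowest array for 11 of the 24, and without it the median was 0.09. Tpi1, triose phosphate isomerase, read 12.03, 11.94 and 12.00 on control diet and 12.30, 12.23, 12.15 and 12.21 on CR (0.23, SE 0.06, limma adjusted p = 0.133). Pkm and Ldha, the enzymes of the last steps to lactate, differed by 0.25 and 0.19. Ppp1r3c, which targets protein phosphatase 1 to glycogen, showed the largest difference in the list at 0.82 (limma adjusted p = 0.239), with 10.06, 10.20 and 9.93 against 10.86, 10.85, 10.72 and 11.11. Of 18 genes of insulin action 4 were higher and 2 lower; the insulin-regulated transporter Slc2a4 differed by 0.25 and Tbc1d1, which holds it inside the cell, by -0.53 (limma adjusted p = 0.208 and 0.249).

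Genes of fat oxidation lay lower and those of the respiratory chain near the median. Of 22 fatty acid oxidation genes none was higher without overlap and 2 were lower, with a median of -0.18. Cpt2, which loads fatty acids inside the mitochondrion, read 8.82, 8.61 and 8.47 on control diet and 8.29, 8.34, 8.17 and 8.09 on CR (-0.41, SE 0.13, limma adjusted p = 0.201). Control 1 was the highest array for the list, and without it the median was -0.04. The medians were 0.01 over 35 genes of respiratory complex I, 0.03 over 33 of complexes III to V, -0.02 over 19 of the TCA cycle and 0.08 over 52 of the mitochondrial ribosome. In the last list 10 genes were higher without overlap and none lower, among them Mrpl2 (0.28), Mrpl15 (0.22) and Mrps2 (0.18). Control 3 was the lowest array for 24 of those 52 genes, and without it the median was 0.06.

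Proteasome subunits, the parts of the cell's main protease for tagged proteins, were also higher in number. Of 32 subunits 12 were higher and 1, the activator Psme4, lower (-0.22), with a median of 0.12. Psmd13, a lid subunit, read 7.97, 8.07 and 8.03 on control diet and 8.42, 8.43, 8.26 and 8.35 on CR (0.34, SE 0.08, limma adjusted p = 0.145). Without control 3, the lowest array for many genes, the median was 0.08. The medians over 24 autophagy and 17 clock genes, 0.0011 and 0.0080, had no stable sign: without control 3 they were -0.050 and -0.11, and without control 2 they were 0.026 and 0.12.

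Glucocorticoid response genes had the highest median of the metabolic and stress lists, 0.32. Of 19 genes 8 were higher without overlap and none lower. Sgk1, a kinase induced by the hormone, read 8.61, 8.06 and 7.93 on control diet and 9.19, 9.19, 8.97 and 8.86 on CR (0.86, SE 0.22, limma adjusted p = 0.17). Ddit4, a brake on mTORC1, read 7.27, 7.05 and 6.30 against 8.45, 8.33, 7.84 and 8.87 (1.50, SE 0.68, limma adjusted p = 0.364), with no overlap and control 3 the lowest array. Cebpd differed by 0.93 and Fkbp5 by 0.65 (limma adjusted p = 0.382 and 0.476). Control 3 was the lowest array for 13 of the 19 genes. The median of the list was 0.25 without control 3 and 0.44 without control 1. No adjusted p in the list passed.

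**Figure D4:**
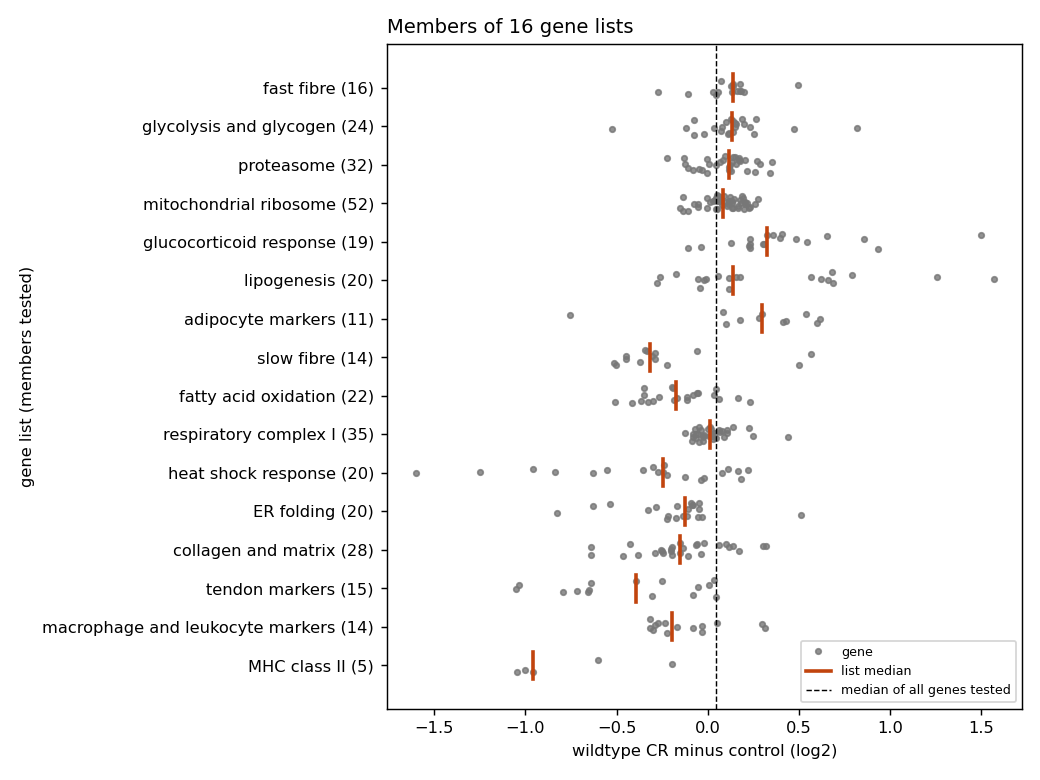
Differences between wildtype CR and control (log2, x axis) of the tested members of 16 gene lists (points), with each list's median (bars) and the median of all genes, 0.04 (dashed line). The glucocorticoid list has its median at 0.32 and the MHC class II list at -0.96, while the respiratory complex I list lies at 0.01.

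Heat shock genes were highest on controls 2 and 3, with list means of 9.61 and 9.84 against 9.03 to 9.35 on the other arrays. Of 20 genes 5 were lower on CR without overlap, the median was -0.24, and 12 of the 20 were highest on control 3. Bag3, a co-chaperone, read 9.70, 10.19 and 10.43 on control diet and 9.08, 9.50, 9.70 and 9.64 on CR (-0.63, SE 0.18, limma adjusted p = 0.186). Hspa1a, the inducible HSP70, read 8.97, 10.37 and 10.94 against 7.25, 7.82, 9.56 and 9.34, so control 1 lay among the CR arrays. The list's median was -0.09 without control 3 and 0.13 without controls 2 and 3, CR 4 and knockout control 1. Endoplasmic reticulum folding genes had list means of 8.12 and 8.01 on controls 2 and 3 and 7.71 to 7.84 on the others. Of these 20 genes 2 were lower and 1 higher without overlap, with a median of -0.12. Control 2 was the highest array for 13 of the 20 and CR 4 the lowest for 12. The median was -0.08 without control 2 and -0.11 without CR 4. It was -8.2e-05 without controls 2 and 3, CR 4 and knockout control 1. Creld2, a chaperone-associated protein, read 6.91, 7.60 and 8.35 on control diet and 6.71 to 6.88 on CR (-0.83, limma adjusted p = 0.239). The part of the pancreatic and germ cell transcripts of controls 2 and 3 in these lists was not tested.

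Connective tissue genes were lower on CR in number. Of 28 collagen and matrix genes 12 were lower and 2 higher without overlap (median -0.15), and of 15 tendon markers 7 were lower and none higher (median -0.39). Sparc, a collagen-binding protein, read 10.76, 10.95 and 11.07 on control diet and 10.41, 10.53, 10.62 and 10.44 on CR (-0.43, SE 0.10, limma adjusted p = 0.117). Dcn, the proteoglycan decorin, differed by -0.26 (limma adjusted p = 0.181). The 2 higher genes were Col4a1 and Col4a2, the chains of basement membrane collagen, and Col4a2 differed by 0.31. Tnmd read 7.17, 7.45 and 7.01 against 5.99, 6.60, 6.67 and 6.41 (-0.79, SE 0.19, limma adjusted p = 0.133). Chad, a cartilage and tendon protein, read 8.79, 8.87 and 8.77 against 6.78, 8.20, 8.15 and 7.88 (-1.05, SE 0.39, limma adjusted p = 0.264).

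CR 1 was the lowest array for 12 of the 15 tendon markers, and their mean was 6.54 on it against 6.99 to 7.13 on the other CR arrays and 7.24 to 7.56 on the controls. Without CR 1 the median of the list was -0.28. Control 2 was the highest array for 11 of the 15, and without controls 2 and 3, CR 4 and knockout control 1 the median was -0.22. The genes of fat were led by CR 1. Of 20 lipogenesis genes 11 and of 11 adipocyte markers 9 were highest on CR 1. Fasn, fatty acid synthase, read 7.77, 7.34 and 7.43 on control diet and 10.83, 9.13, 7.43 and 8.95 on CR, so CR 3 lay among the controls. Its difference of 1.57 had an SE of 0.62 (limma adjusted p = 0.303). Elovl6, the elongase that acts after it, read 9.43 on CR 1 and 5.92 to 7.36 on the other 6 arrays.

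Adipoq, the fat cell hormone adiponectin, read 7.36, 7.11 and 6.62 on control diet and 8.86, 7.99, 6.41 and 7.26 on CR. Among the CR arrays Adipoq, Fasn and Elovl6 were each highest on CR 1 and lowest on CR 3. Lep, leptin, which fat cells release in proportion to their stores, was the 1 adipocyte marker with a negative difference (-0.75, limma adjusted p = 0.281). Of the lipogenesis list only Srebf1, the transcription factor of the pathway, and Pnpla3 were higher on all CR arrays. Srebf1 read 7.07, 7.22 and 6.90 against 7.86, 7.58, 7.44 and 7.64 (0.56, SE 0.15, limma adjusted p = 0.17). How far the amount of fat or tendon in each sample moved these lists was not tested.

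**Figure D5:**
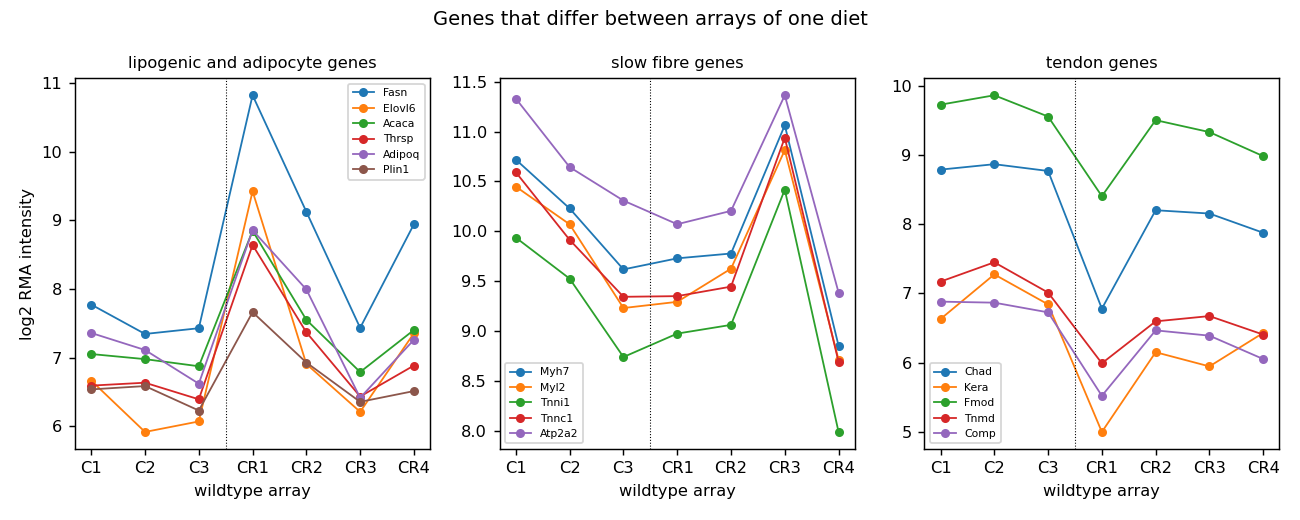
Log2 RMA intensity of lipogenic and adipocyte genes, slow fibre genes and tendon genes on the 7 wildtype arrays (C1 to C3 control, CR1 to CR4 restricted; the dotted line parts the diets). Fasn reaches 10.83 on CR 1 and 7.43 on CR 3, Myh7 11.06 on CR 3 and 8.85 on CR 4, and Chad 6.78 on CR 1.

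Genes of antigen presentation had the lowest median of the lists of cells found in muscle. Of 5 MHC class II genes tested 4 were lower on CR without overlap, and the median was -0.96. Cd74, the invariant chain, read 7.98, 7.24 and 7.55 on control diet and 6.84, 6.72, 6.19 and 6.44 on CR (-1.05, SE 0.35, limma adjusted p = 0.229). H2-Ab1 differed by -1.002 and H2-Eb1 by -0.60 (limma adjusted p = 0.181 and 0.201). The median of the list lay between -1.34 and -0.72 over the fits that left out arrays or re-normalized. Control 1 was the highest array for all 5 genes, and -0.72 was the median without it. Of 14 macrophage and leukocyte markers none was without overlap in either direction, with a median of -0.19. Control 1 was the highest array for 10 of the 14, and the median was -0.065 without it and -0.42 without controls 2 and 3, CR 4 and knockout control 1. None of these genes passed the test.

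The response was set against that of the knockout mice through the difference of the 2 responses. No gene (0%) passed this test (limma, smallest adjusted p 0.0822, with 689 genes or 5.71% at an unadjusted p under 0.05). That smallest p belonged to Mybph, which differed by 1.35 on CR in wildtype and by -0.16 in knockout mice. Its knockout control arrays read 10.16, 9.77, 10.03 and 9.63 and its knockout CR arrays 9.61, 10.05, 9.66 and 9.63, all above the wildtype controls. The knockout arrays of Actc1 read 12.20 to 12.66 on control diet, above the wildtype controls, and it differed by 0.37 on CR there. Of the 15 genes 13 had the same direction of difference in knockout mice, as had 66.3% of all genes, and none passed there, where 8 of all genes did (0.0664%). The difference of responses had an unadjusted p under 0.05 in 8 of the 15, which were chosen on the wildtype response that enters it. Without control 2 the difference of responses passed for Mybph (limma adjusted p = 0.0103), as it did without knockout CR 2 (0.0402). Without knockout control 1 it was 1.43 and did not pass (limma adjusted p = 0.179).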

How the data were processed

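The deposited table holds log2 intensities that the authors made with RMA, per the submitters' processing notes (version not stated). No scan day or other batch is named, and none was tested. It covers 35556 probe sets on 15 arrays. Probe sets with 1 symbol (21789) were kept, and the one with the highest mean over all 15 arrays stood for a gene. Genes with such a mean under 5.32, which is the 40th percentile over 23410 annotated probe sets, were left out. A limma fit (version 3.58.1, R 4.3.3) took all 15 arrays with 1 mean per group, two-sided with Benjamini-Hochberg adjustment over 12056 genes. The fit was tested on simulated data. Errors beside differences are moderated standard errors. Promoters come from RefSeq (GRCm38.p6), and figures were drawn with matplotlib 3.10.9.

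The 49 gene lists were chosen with earlier results of these data known: 894 of 968 entries were on the array and 790 were tested. The genes named are those past the threshold, the 10 next by p and the 10 largest in each direction, up to 3 per list by p, the muscle identity list, up to 6 per array by the gap to the next array, and Sirt3. Acta1 is one of these. Chad, Myh7, Alb, Adipoq, Hspa1a, Fkbp5, Igf1, Ppp1r3c, Psme4, Mylk4, Col4a1 and Fibin were named after their values were seen. For same-numbered wildtype control and CR arrays, the deviations from the group means had correlations of -0.02, 0.16 and 0.20. The other wildtype pairs of a control and a CR array lay between -0.16 and 0.11. Between genotypes, same-numbered arrays ran from -0.64 to 0.50. These correlations cannot decide whether the numbers pair animals, since transcripts of other tissues on single arrays also enter them. The main fit took the animals as unpaired. Alternatives were other filters, probe set rules, scalings, priors, weights and sets of arrays.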

Additional observations from a re-analysis of the deposited data

Results flagged for a closer look

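Among 119 printed genes examined on the 4 wildtype CR arrays, 6 had 1 array far from the other 3 by Dixon's test, whose 95% critical value chance passes in about 1 in 20 groups. Mybph and Rpl10a were low on CR 3, at 9.96 with the others from 10.31 and at 11.32 with the others from 11.40. Fkbp5 was also low there, at 7.64 with the others from 7.97. On CR 4, Tbc1d1 was low at 7.47 and 1810013L24Rik at 7.86, with the others from 7.99 and 8.06, and Igf2 was high at 8.05 with the others up to 7.57.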

How the results depend on the processing

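All 15 genes kept their direction in every fit that tested them (Slc39a10 was not tested with the filter at the 60th percentile). The count of 15 (13 higher, 2 lower) became 4 (4 and 0) with no filter or with arrays centred on their median, 23 (21 and 2) with the filter at the 60th percentile, and 8 (8 and 0) with the mean of the probe sets or quantile normalization. Probe sets tested singly gave 10 (9 and 1), array weights 15 (11 and 4), and the 7 wildtype arrays alone 1 (1 and 0). Without wildtype control 3 and knockout control 1 it was 4 (2 and 2), and without these, control 2 and CR 4 it was 8 (3 and 5). Leaving out each array gave 4 to 41 (3 to 33 higher, 0 to 10 lower). The replicate block gave 1 (Mybph; 1 and 0), with 1428 genes at an unadjusted p under 0.05. The genotype difference, 0 genes, became 1 with the 60th percentile filter, 0 to 7 when 1 array was left out, and 6 without the 4 arrays. The 7 genes, called without control 2, were 2210010C04Rik, Carhsp1, Clps, Cpa1, Mybph, Prss2 and Sycn. All but Carhsp1 and Mybph had stood out on control 2, the array with pancreatic transcripts. Among them, 2210010C04Rik and Clps were also called without the 4 arrays, a fit that leaves 1 wildtype control array. The part of pancreatic transcripts in these calls was not tested. Where the causes were not shown by fewer genes or arrays, they were not tested.

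Differences that changed sign, none past the threshold, were Smcp (0.049), Crisp2 (0.19) and Prm1 (0.24) without the 4 arrays. When 1 array was left out, Myh7 ran from -0.74 to 0.0015 (positive without CR 4), Alb from -1.20 to 0.32 and Hamp from -1.36 to 0.64. Counts of genes standing out at a gap of 1 instead of 2 log2 units were 949 on control 3, 48 on control 2 and 54 on CR 4, and at a gap of 3 they were 173, 34 and 1. The number of arrays limits what could be called: the smallest difference called was 0.33, in a gene with a standard error of 0.059.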

Other observations

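Of 5466 probe sets with several symbols or none, fitted in the same way, none passed an adjusted p of 0.05 with limma (the smallest was 0.159), and 693 had an unadjusted p under 0.05.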
